A study of Mus musculus with 41 samples.

Results

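The Hox genes of the mouse were taken as every gene whose symbol reads Hox, then a letter from a to d, then a number. This gave 39 of the 27197 genes in the count table. In GRCm38 the HoxA cluster holds 11 of them (chr6:52155590-52260880, minus strand), HoxB 10 (chr11:96194316-96368256, plus strand), HoxC 9 (chr15:102921103-103036852, plus strand), and HoxD 9 (chr2:74668310-74765142, plus strand). The number in a symbol is the paralog position, and genes were grouped as anterior (positions 1 to 3, 8 genes), central (positions 4 to 8, 15 genes), and posterior (positions 9 to 13, 16 genes).

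The study derived mesothelioma cell lines and tumors from mice that received adenoviral Cre, driven by the CMV promoter, in the pleural space at an age of 6 to 8 weeks, on a mixed FVB, Bl6, and 129Ola background and under cyclosporine A. BNC lines (JB81, JB91, and JB97) carried Bap1-/-;Nf2-/-;Cdkn2ab-/-, and NC lines (JB84, JB87, and JB93) carried Nf2-/-;Cdkn2ab-/- with Bap1 intact, so that loss of Nf2 and Cdkn2ab was shared. Ink4a and Ink4b are missing from the germline of the Cdkn2ab strain, and Arf is removed by Cre. The other 9 RNA libraries came from tumors, which the labels divide into 5 of BNC and 4 of NC genotype without saying which column is which, so they are described here as 1 set.

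Hox genes encode homeodomain transcription factors that give cells their place along the body axis. Within a cluster the genes are arranged in the order in which they are used from head to tail, and cells of adult tissues keep much of the Hox pattern of the body level they came from. Polycomb complexes hold Hox genes silent and Trithorax complexes keep them active. BAP1 removes ubiquitin from histone H2A, a mark that Polycomb complexes place. Pbx, Meis, and Pknox proteins (the TALE family) bind DNA together with Hox proteins.

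RefSeq promoters were read for the members, as the 250 bases before a gene start in GRCm38.p6. Of the 39 genes, 22 had an entry, with 24 starts among them. The sequences below are from genes on which the results turn: Hoxa5, which was lower but present in BNC lines, Hoxa9 and Hoxa10, which were close to or at 0 counts there, Hoxb4, which had near-equal means in both groups, and Hoxd8, the highest gene of HoxD. Capitals mark CG dinucleotides, each sequence runs 5′ to 3′ on the strand of its gene, and none of them overlaps an exon of the GENCODE annotation.
Hoxa5: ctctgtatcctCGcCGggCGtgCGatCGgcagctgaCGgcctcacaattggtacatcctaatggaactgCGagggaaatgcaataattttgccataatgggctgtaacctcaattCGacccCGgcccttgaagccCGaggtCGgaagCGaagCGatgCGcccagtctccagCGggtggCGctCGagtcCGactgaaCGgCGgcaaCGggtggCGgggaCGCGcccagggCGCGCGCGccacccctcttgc
Hoxa9: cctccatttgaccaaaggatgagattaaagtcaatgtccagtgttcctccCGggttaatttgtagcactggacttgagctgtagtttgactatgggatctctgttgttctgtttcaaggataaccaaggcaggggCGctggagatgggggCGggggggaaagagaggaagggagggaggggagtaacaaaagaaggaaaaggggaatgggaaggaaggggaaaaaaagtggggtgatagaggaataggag
Hoxa10, downstream start: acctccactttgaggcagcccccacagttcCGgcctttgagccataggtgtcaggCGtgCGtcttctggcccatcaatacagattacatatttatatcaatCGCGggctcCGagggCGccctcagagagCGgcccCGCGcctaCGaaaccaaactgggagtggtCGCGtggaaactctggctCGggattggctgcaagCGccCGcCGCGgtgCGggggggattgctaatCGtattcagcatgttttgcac
Hoxa10, upstream start: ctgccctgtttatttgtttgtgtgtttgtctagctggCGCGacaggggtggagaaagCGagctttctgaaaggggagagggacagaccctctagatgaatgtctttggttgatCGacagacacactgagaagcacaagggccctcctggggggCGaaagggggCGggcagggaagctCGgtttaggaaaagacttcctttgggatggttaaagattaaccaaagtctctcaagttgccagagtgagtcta
Hoxb4: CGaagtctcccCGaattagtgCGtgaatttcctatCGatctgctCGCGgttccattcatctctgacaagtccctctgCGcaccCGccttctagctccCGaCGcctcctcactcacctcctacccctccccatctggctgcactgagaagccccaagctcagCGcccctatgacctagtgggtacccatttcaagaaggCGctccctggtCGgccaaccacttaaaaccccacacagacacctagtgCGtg
Hoxd8: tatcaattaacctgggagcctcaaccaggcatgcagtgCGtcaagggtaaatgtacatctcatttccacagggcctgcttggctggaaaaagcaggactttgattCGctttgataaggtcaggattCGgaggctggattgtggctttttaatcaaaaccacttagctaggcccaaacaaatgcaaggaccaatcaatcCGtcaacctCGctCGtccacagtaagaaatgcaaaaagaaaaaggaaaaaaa

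These windows lie at chr6:52204588-52204837 for Hoxa5, chr6:52227371-52227620 for Hoxa9, chr6:52234940-52235189 and chr6:52240855-52241104 for the pair of Hoxa10 starts (all on the minus strand), chr11:96318017-96318266 for Hoxb4, and chr2:74704365-74704614 for Hoxd8 (both on the plus strand). The Hoxa5 window held 28 CG pairs, more than 92.4% of the 32817 promoter windows of the same length in the RefSeq table. The Hoxa9 window held 3 and more than 29.1% of them. The 2 Hoxa10 windows held 20 and 7, the Hoxb4 window 14, and the Hoxd8 window 6. Over the 24 Hox windows the median was 12.5 pairs (range 2 to 35), against a median of 6 over all windows. The 7 windows of genes that passed an adjusted p of 0.05 in the comparison of lines held 3 to 28 pairs (median 8). The other 17 held 2 to 35 (median 13), so that the ranges overlapped almost wholly. The 7 belong to Hoxa5, Hoxa6, Hoxa7, Hoxa9, Hoxa10, and Hoxc4, whose window lies wholly within an exon of Hoxc4. The other genes that passed had no window, and the other 17 windows include genes that were not tested, such as Hoxa13 and Hoxd13. Letters known from sites of the TALE family were also counted on both strands. TGACAG (Meis) was found in 2 of 24 Hox windows (8.33%) and 15.9% of all windows, and TGATNNAT (Pbx with Hox) in 4 of 24 (16.7%) and 7.69% of all windows. Neither was found in the 7 windows of the genes that passed.

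Counts per library were between 12377675 and 23936922 in the lines and between 8158740 and 21851974 in the tumors, and BNC lines were sequenced more deeply (20231284 to 23936922) than NC lines (12377675 to 18999233). Levels are counts scaled to library size (CPM) after TMM scaling over all 15 libraries, and 3 counts correspond to 0.127 to 0.229 CPM in a line and to 0.773 CPM in the tumor library B1. This library stood apart, with 24.7% of its counts on the gene Gm42418. Among the lines, JB81 and JB91 differed by over 2-fold in only 5 of 10511 genes, and JB84 and JB93 in 8 of 10545, whereas other pairs within a group differed in 1549 to 2434 genes. Nothing in the sources used here says that the lines of a close pair came from separate animals, so the p-values below, which count 3 lines a group, measure only the spread between these libraries and may be too small. Bap1 itself was 41.4, 42.7, and 37.5 CPM in JB81, JB91, and JB97, and 57.0, 56.2, and 61.0 CPM in JB84, JB87, and JB93, with no overlap. Reads from Bap1 exons outside the deleted part remain countable.

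Hox genes were lower in BNC than in NC lines in 2 stretches, from Hoxa4 to Hoxa10 and from Hoxc4 to Hoxc10. The anterior genes of HoxA and the genes of HoxB did not pass the test. Of the 39 genes, 26 passed the low-count filter and were tested, and 12 of them fell in BNC lines at an adjusted p under 0.05 (edgeR quasi-likelihood test, Benjamini-Hochberg adjusted over 12376 genes), against 8.45% of all genes tested that were lower at this level (14.2% in either direction). In edgeR 0 members rose at that level, against 5.78% of all genes, while DESeq2 placed Hoxb3 higher at an adjusted p of 0.0368. In either direction 16 of the 26 members had an unadjusted p under 0.05 in edgeR, against 4408 of the 12376 genes. At the stricter rule of an adjusted p under 0.01 and over 2-fold, 1 member was called (Hoxc9), against 1.1% of all genes. DESeq2 called 14 of 27 members by the same rule, all lower in BNC, against 15.1% of all genes (9.13% lower in BNC). Of the 26 tested members, 8 reached the filter through NC lines alone, with under 10 counts in every BNC line. They were Hoxa6, Hoxa9, and every gene of the stretch from Hoxc4 to Hoxc10. These had to be lower in BNC, and their number is no support for the direction. The same 8 genes were among the 14 that DESeq2 called. So was Hoxb13, which had no count in any BNC line and also had to be lower. Nothing is read from the 14 or from the share of all genes beside them.

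**Figure D1:**
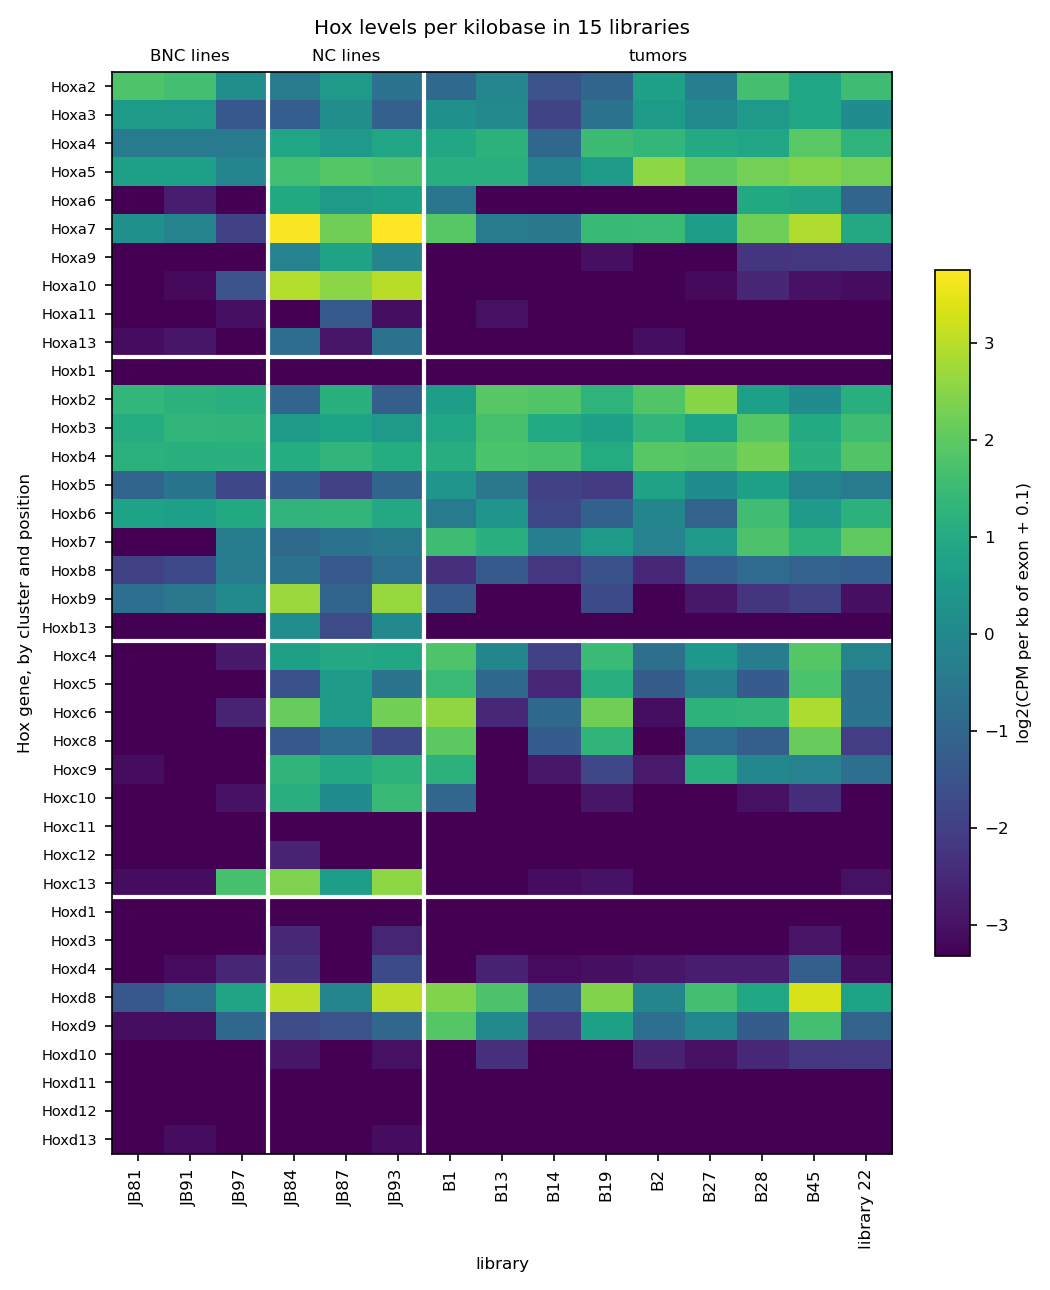
Hox levels in each of the 15 libraries (columns: 3 BNC lines, 3 NC lines, and 9 tumors) for 38 of the 39 genes (rows, by cluster and position), as log2 of CPM per kilobase of exon plus 0.1. The HoxC rows from Hoxc4 to Hoxc10 are darker in the 3 BNC lines than in the 3 NC lines. The lowest color covers the 5 genes without a count in any library.

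The calls were lost without any 1 library of a close pair. Leaving out JB81, JB91, JB84, or JB93 left 0 members at an adjusted p under 0.05 in edgeR (smallest member values 0.0521, 0.0549, 0.0540, and 0.0540). At an unadjusted p under 0.05 were 12 to 14 of 26 to 28 members, against 2843 to 2910 of all genes in these fits. With each close pair summed into 1 library, edgeR also gave 0 members (smallest adjusted p 0.253). Of 27 members 11 had an unadjusted p under 0.05 there, against 1508 of all genes. DESeq2 on the same sums gave 11 members at an adjusted p under 0.05, of which 10 were among the 12, against 958 of all genes. The 12 genes were lower in BNC in each of these fits. Of all genes, 15 to 54 passed an adjusted p of 0.05 in these fits with a line left out and 0 with summed pairs, against 1761 with all 6 lines.

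In HoxA the anterior genes Hoxa2 and Hoxa3 were on in every line. Hoxa2 was 6.02, 5.30, and 1.83 CPM in JB81, JB91, and JB97 and 1.13, 2.29, and 0.961 CPM in JB84, JB87, and JB93. Hoxa3 was 8.14, 7.74, and 1.73 CPM against 2.01, 6.18, and 2.11 CPM. For Hoxa2 JB97 lay within the range of the NC lines and for Hoxa3 below it, and neither gene passed the test (edgeR adjusted p = 0.125 and 0.495).

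The central genes Hoxa4 to Hoxa7 were lower in BNC lines without overlap. Hoxa4 was 1.02, 1.07, and 1.07 CPM in JB81, JB91, and JB97 and 2.77, 2.06, and 2.70 CPM in JB84, JB87, and JB93 (log2 fold change, BNC minus NC throughout, -1.31 ± 0.30, SE, n = 3 a group, edgeR adjusted p = 0.0397). Hoxa5, the highest HoxA gene per kilobase in the tumors, was 2.84, 2.82, and 1.52 CPM against 5.60, 6.72, and 6.27 CPM (log2 fold change -1.42 ± 0.34, SE, edgeR adjusted p = 0.0455). Both genes were thus still read in every BNC line, and the NC mean was 2.39 times the BNC mean for Hoxa4 and 2.59 times for Hoxa5. Hoxa6 was 0, 0.0428, and 0 CPM against 1.64, 1.15, and 1.33 CPM. From the 1 count in the BNC lines the ratio of NC to BNC was 91.8 (exact 95% counting interval 15.9 to 3676), and the log2 fold change was -6.06 ± 0.79 (SE, edgeR adjusted p = 0.0128). Hoxa7, the highest HoxA gene per kilobase in NC lines (10.3 CPM per kb), was 3.05, 2.27, and 0.457 CPM against 37.1, 12.98, and 38.5 CPM (log2 fold change -3.97 ± 0.79, SE, edgeR adjusted p = 0.0302). JB97 was the lowest BNC line for this gene and JB87 the lowest NC line.

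The posterior genes Hoxa9 and Hoxa10, which pattern the trunk and limbs and are active in blood progenitors, were read in NC lines and near 0 in BNC lines. Hoxa9 had no count in any BNC line and was 4.34, 8.86, and 4.67 CPM in JB84, JB87, and JB93. Against a floor of 3 counts over the BNC group, NC lines were at least 125-fold higher (edgeR adjusted p = 0.0128). Hoxa10 was 0, 0.0428, and 0.812 CPM against 24.97, 18.4, and 25.9 CPM (log2 fold change -6.44 ± 1.25, SE, edgeR adjusted p = 0.0281). JB97 was the only BNC line with more than 3 counts of Hoxa10. The remaining posterior genes of the cluster did not pass the filter of the edgeR fit. Hoxa11 had 1 count over the BNC lines and 10 over the NC lines, 9 of them in JB87, and Hoxa13 had 3 and 48. For Hoxa13 the ratio of NC to BNC was 20.98 (exact 95% counting interval 6.76 to 105), and DESeq2 gave it a log2 fold change of -4.33 (DESeq2 adjusted p = 0.0205). Summed over Hoxa9 to Hoxa13, the level was 0.0424 to 0.863 CPM in BNC lines and 28.02 to 31.9 CPM in NC lines, and over the anterior and central genes of HoxA it was 15.4 to 25.4 CPM in BNC lines and 39.1 to 57.3 CPM in NC lines.

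Some of these genes share exon bases with other counted genes, and the strand setting of the counting is not given in the sources used here. The annotated antisense gene Hoxaas3 covers 20.4% of the exon bases of Hoxa7, and Gm29430 covers 16% of those of Hoxa4, so reads of the partners cannot be told apart there. Hoxa5, Hoxa6, Hoxa9, and Hoxa10 share no exon base with another counted gene. For Hoxc5 and Hoxc10, which share 5.37% and 8.70% of their exon bases with each other, the counting could split reads between the pair.

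**Figure D2:**
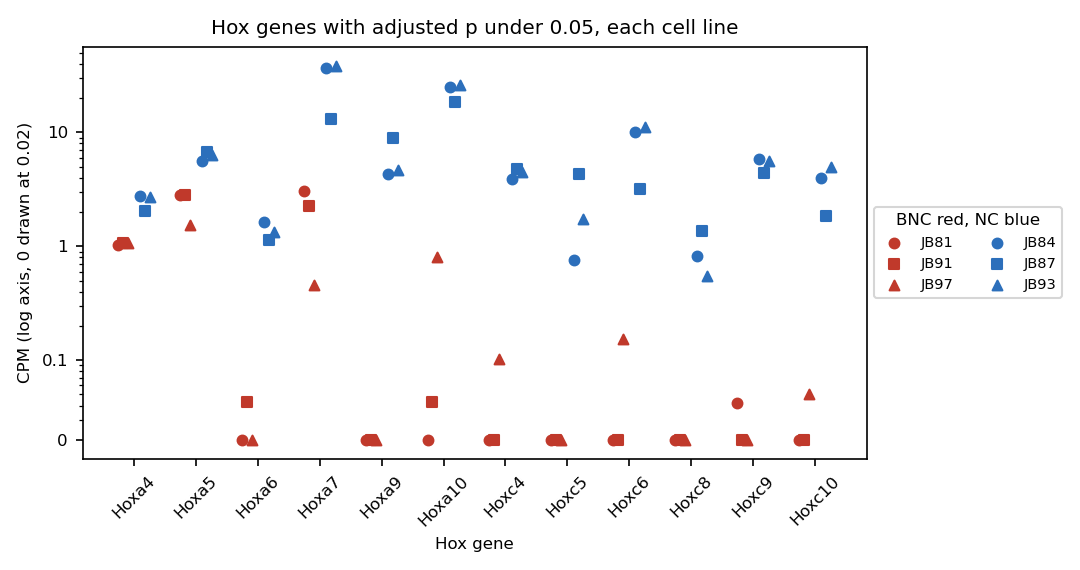
Level in CPM (log axis, with 0 drawn at 0.02) of the 12 Hox genes with an adjusted p under 0.05, 1 symbol for each of the 3 BNC (red) and 3 NC (blue) lines. For every gene all red symbols lie below all blue symbols, and the gap is narrowest for Hoxa4 and Hoxa5.

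In HoxC the genes from Hoxc4 to Hoxc10 were read in all NC lines and had 0 to 3 counts over the 3 BNC lines together. Hoxc9, a gene of trunk identity, was 0.0424, 0, and 0 CPM in JB81, JB91, and JB97 and 5.79, 4.43, and 5.58 CPM in JB84, JB87, and JB93. The ratio of NC to BNC was 357 (exact 95% counting interval 63.5 to 14137), and the log2 fold change was -8.00 ± 0.75 (SE, edgeR adjusted p = 0.00716). Hoxc10 was 0, 0, and 0.0508 CPM against 3.96, 1.83, and 4.99 CPM, a ratio of 257 (exact 95% counting interval 45.6 to 10201, edgeR adjusted p = 0.0121).

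Hoxc4 was 0, 0, and 0.102 CPM in the BNC lines against 3.90, 4.73, and 4.53 CPM in the NC lines, a ratio of 146 (exact 95% counting interval 40.0 to 1215, edgeR adjusted p = 0.0130). Hoxc6, the highest HoxC gene per kilobase in the tumors, was 0, 0, and 0.152 CPM against 10.1, 3.21, and 11.1 CPM, a ratio of 195 (exact 95% counting interval 66.3 to 949, edgeR adjusted p = 0.0188). The few counts of Hoxc4, Hoxc6, and Hoxc10 in BNC cells came from JB97, and that of Hoxc9 from JB81. Hoxc5 had no count in BNC lines and was 0.755, 4.28, and 1.74 CPM in NC lines, at least 46.3-fold higher than 3 counts over the BNC group (edgeR adjusted p = 0.0350). Hoxc8 had no count in BNC lines and was 0.818, 1.37, and 0.549 CPM in NC lines, at least 18.8-fold higher on the same floor (edgeR adjusted p = 0.0259). These intervals and floors cover counting error only, since counts were pooled over the lines of a group and the spread between lines was left out. The reads also carry no molecular identifiers.

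Hoxc13, known for its part in hair and nail, did not follow its cluster. It was 0.0424, 0.0428, and 7.77 CPM in JB81, JB91, and JB97 and 12.6, 3.59, and 14.1 CPM in JB84, JB87, and JB93. JB97, with 153 counts of this gene, thus lay between JB87 and JB84 and far above the other BNC lines, and the log2 fold change was -2.03 ± 1.72 (SE, edgeR adjusted p = 0.420). Without JB97 it was -7.73 (edgeR adjusted p = 0.00921). Per kilobase Hoxc13 was the highest HoxC gene in BNC lines (1.06 CPM per kb, from JB97) and in NC lines (4.10 CPM per kb). Hoxc11 had no count in any library and Hoxc12 had 1 count in all.

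HoxB was the cluster with the smallest difference between the groups, and its summed level was 28.5 to 32.3 CPM in BNC lines and 28.9 to 37.9 CPM in NC lines. Of its 10 genes, 8 were tested and 0 passed an adjusted p of 0.05 in edgeR, with 2 at an unadjusted p under 0.05 and 3 (Hoxb3, Hoxb9, and Hoxb13) at an adjusted p under 0.05 in DESeq2. Hoxb4, the gene with the highest level per kilobase of HoxB in the tumors, was 5.64, 5.56, and 5.53 CPM in JB81, JB91, and JB97 and 5.09, 6.26, and 5.13 CPM in JB84, JB87, and JB93 (log2 fold change -0.03 ± 0.23, SE, edgeR adjusted p = 0.932). Hoxb3 was 8.35, 10.4, and 10.2 CPM against 5.53, 6.95, and 5.58 CPM. It was the 1 tested member whose BNC lines all lay above the NC lines, as 23.6% of all tested genes did, and it did not pass the test (log2 fold change 0.62 ± 0.23, SE, edgeR adjusted p = 0.115). The antisense gene Hoxb3os covers 52.9% of its exon bases.

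Hoxb2, the highest HoxB gene per kilobase in BNC lines (2.27 CPM per kb), was 8.56, 7.87, and 7.36 CPM in the BNC lines and 1.38, 7.48, and 1.19 CPM in the NC lines. JB87 lay among the BNC lines and the close pair JB84 and JB93 lay below them, and the gene did not pass (log2 fold change 1.19 ± 0.75, SE, edgeR adjusted p = 0.293). Hoxb9, the highest HoxB gene per kilobase in NC lines (4.32 CPM per kb), was 1.27, 1.54, and 2.39 CPM against 16.2, 0.993, and 16.1 CPM. Here JB87 lay below every BNC line (log2 fold change -2.74 ± 0.96, SE, edgeR adjusted p = 0.103). Hoxb5 to Hoxb8 overlapped between the groups. The genes at the ends of the cluster did not pass the filter of the edgeR fit. Hoxb1 had no count in any library, and Hoxb13 had none in the BNC lines and was 2.20, 0.458, and 2.11 CPM in the NC lines, at least 38.0-fold higher than 3 counts over the BNC group. DESeq2 called Hoxb13 lower in BNC (log2 fold change -7.62, DESeq2 adjusted p = 2.38e-05).

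In HoxD only Hoxd8 and Hoxd9 were tested, and 0 passed in edgeR, with 1 at an unadjusted p under 0.05 and 1 (Hoxd8) at an adjusted p under 0.05 in DESeq2. Hoxd8, the highest HoxD gene per kilobase in BNC lines, NC lines, and tumors alike, was 0.763, 1.28, and 4.52 CPM in JB81, JB91, and JB97 and 22.3, 2.29, and 22.4 CPM in JB84, JB87, and JB93. JB97 lay above JB87, so that the groups overlapped, and the gene did not pass (log2 fold change -2.91 ± 1.04, SE, edgeR adjusted p = 0.106). Hoxd9 was 0.0424, 0.0428, and 0.914 CPM against 0.440, 0.534, and 0.870 CPM (edgeR adjusted p = 0.544), with JB97 the highest of the 6 lines. Of the 7 genes of HoxD that were not tested, Hoxd1, Hoxd11, and Hoxd12 had no count in any library, Hoxd10 and Hoxd13 had at most 1 count in a line, Hoxd3 had 0 counts over BNC and 11 over NC lines, and Hoxd4 had 5 and 18. Exons of Hoxd3 and Hoxd4 overlap each other and further genes over 62.9% and 52.3% of their bases.

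By position, the 5 tested anterior genes had a median log2 fold change of 0.73, the 14 tested central genes -2.16, and the 7 tested posterior genes -6.44, beside a median of 0.00 over all 12376 genes. In edgeR 0 of the anterior genes (2 at an unadjusted p under 0.05, 1 at an adjusted p under 0.05 in DESeq2), 8 of the central, and 4 of the posterior genes passed an adjusted p of 0.05. By cluster the medians were -1.42 for 9 HoxA genes, -0.24 for 8 HoxB genes, -7.32 for 7 HoxC genes, and -1.95 for 2 HoxD genes. In HoxA 6 of 9 and in HoxC 6 of 7 passed. Over the posterior positions of all clusters 1 to 4 genes in a BNC line had more than 3 counts and 9 in each NC line, and over the anterior positions 5 genes in each BNC line and 5 to 6 in each NC line. In 12 of 26 tested members all BNC lines lay below all NC lines, against 18.6% of all tested genes. They were the same 12 genes that passed. Of the 12, 8 had under 10 counts in every BNC line and reached the filter through NC lines alone, namely Hoxa6, Hoxa9, and the 6 HoxC genes, so that their direction was fixed by the filter and nothing is read from these counts, from their background share, or from the medians of HoxC and of the posterior genes. The other 4 were Hoxa4, Hoxa5, Hoxa7, and Hoxa10. The median of a position or cluster is set in part by genes near 0 counts, whose fitted fold changes depend on the prior count. The HoxA median was -2.68 in DESeq2, -2.85 without JB87, and -0.095 where genes with under 10 counts in a line were dropped, and the HoxD median was -3.84 without JB97.

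**Figure D3:**
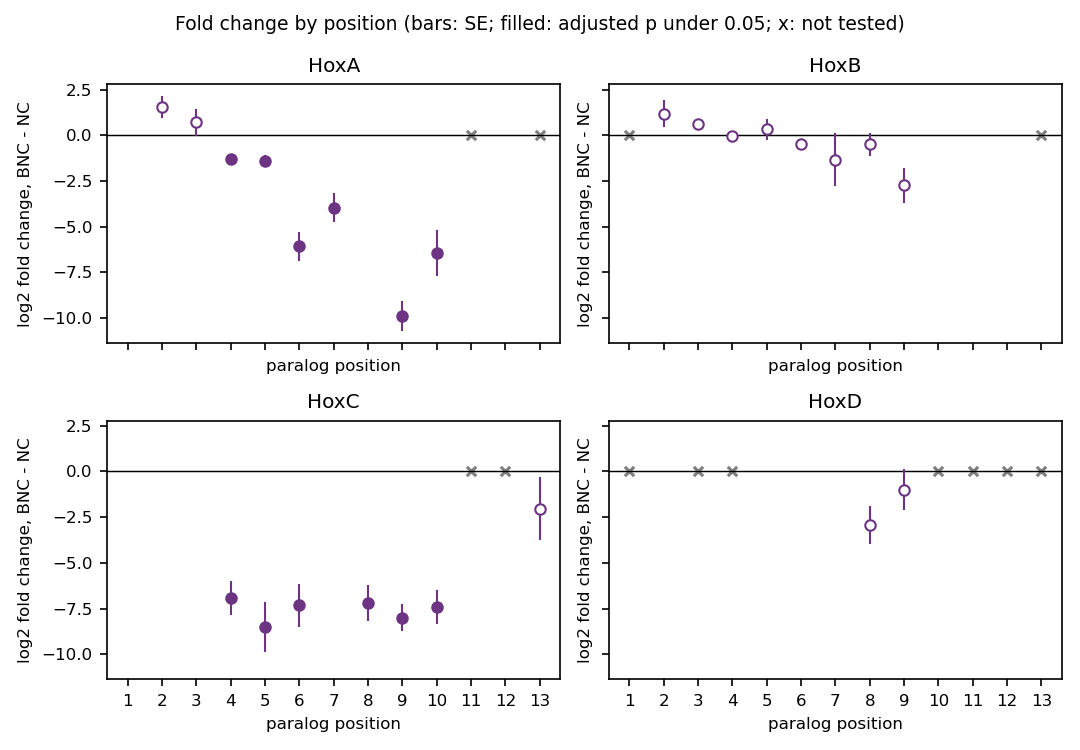
Log2 fold change (BNC minus NC lines, n = 3 each, edgeR) by paralog position in the 4 clusters, with bars of 1 SE. Filled points have an adjusted p under 0.05, open points do not (1 tested gene is not drawn), and crosses at 0 mark the 13 genes that were not tested in edgeR. The filled points run from Hoxa4 to Hoxa10 and from Hoxc4 to Hoxc10, and HoxB and HoxD hold open points only.

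Number prefixes in the column names put JB81, JB84, and JB87 in one set and JB91, JB93, and JB97 in another. They are called run prefixes here, although nothing in the sources used here says what they stand for. Since the 12 genes do not overlap between the groups, their order within each set is fixed and adds nothing. With the prefix as a term of the fit, 2 members passed an adjusted p of 0.05 and all 12 were lower in BNC.

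Lines of the same genotype also differed in their Hox genes. Among the 21 members with at least 30 counts in an NC line, JB87 differed by over 2-fold from the mean of JB84 and JB93 in 11, with Hoxa2, Hoxa3, Hoxb2, and Hoxc5 higher and Hoxa7, Hoxb9, Hoxb13, Hoxc6, Hoxc10, Hoxc13, and Hoxd8 lower. Among the 14 such members of the BNC lines, JB97 differed from JB81 and JB91 in 7, with Hoxb8, Hoxc13, and Hoxd8 higher and Hoxa2, Hoxa3, Hoxa7, and Hoxb5 lower. The lines of a close pair differed by over 2-fold in 1 of 21 and 0 of 14 members. The whole Hox output of a line, summed over the 39 genes, was 54.9 to 62.3 CPM in BNC lines and 122 to 193 CPM in NC lines.

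**Figure D4:**
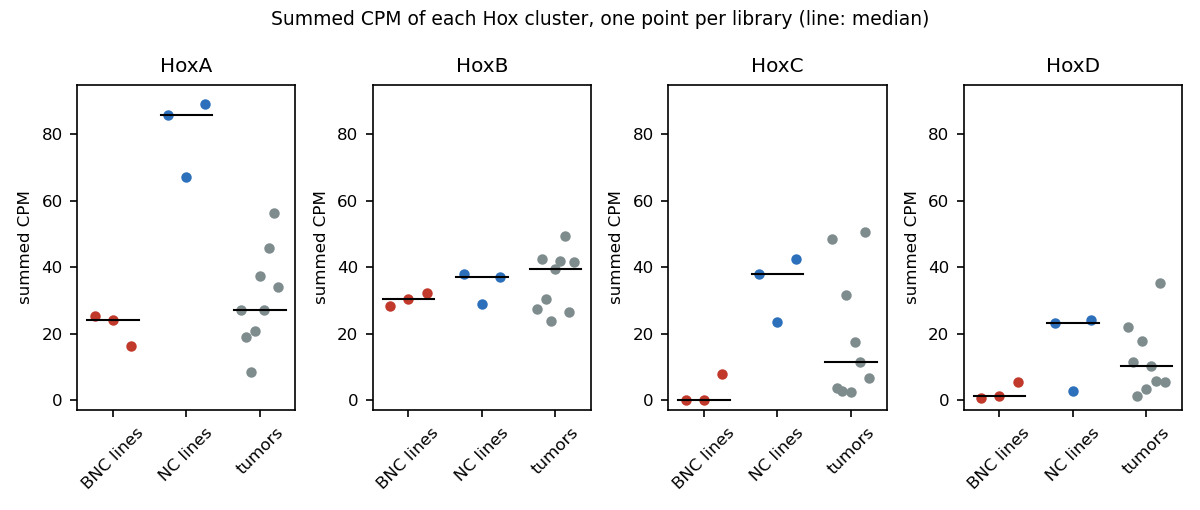
Summed CPM of the genes of each cluster, 1 point per library (3 BNC lines, 3 NC lines, 9 tumors), with a line at the median of a group. HoxA and HoxC separate BNC from NC lines, HoxB does not, and 3 tumors exceed 30 CPM for HoxC.

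Summed markers of several cell types differed between the groups of lines, but the genes of a list did not all go the same way. The 10 mesothelial markers summed to 130 and 131 CPM in JB81 and JB91, 931 CPM in JB97, and 2370 to 3292 CPM in NC lines. The mesothelial transcription factor Wt1 was at 72.9 to 127 CPM in all 6 lines, whereas Msln (mesothelin) was 0.212 and 0.428 CPM in JB81 and JB91, 227 CPM in JB97, and 835 to 2041 CPM in NC lines, and Calb2 (calretinin) was at 0 in every line. The 5 fibroblast markers summed to 7610 to 14463 CPM in BNC and 1159 to 5813 CPM in NC lines. Most of each sum was Col1a1 and Col1a2 (means 5331 and 6475 CPM in BNC, 1695 and 1044 CPM in NC lines). Dcn was 2.42 and 2.57 CPM in JB81 and JB91, 50.2 CPM in JB97, and 5.68 to 20.8 CPM in NC lines. Pdgfra overlapped between the groups (25.7 to 42.6 CPM in BNC and 17.2 to 31.5 CPM in NC lines), and Lum had at most 1 count in a line. The 4 endothelial markers summed to 1.44 to 7.77 and 49.1 to 57.5 CPM, and Kdr made most of the NC sum (47.9 to 57.1 CPM). Pecam1 and Tek went the other way (means 0.212 and 0.871 CPM in BNC, 0.0210 and 0.546 CPM in NC lines). Pecam1 had at most 5 counts in a line and Cdh5 at most 3. The 5 muscle and heart markers summed to 2.03 to 12.2 and 36.4 to 74.1 CPM, with Tnnt2 at 33.4 to 72.5 CPM in NC lines. Myh6 was at 0 and Ckm at most at 1 count. Des went with Tnnt2 (mean 0.193 CPM in BNC and 1.54 CPM in NC lines). Acta1 went the other way (mean 2.17 CPM in BNC and 0.394 CPM in NC lines). The 8 leukocyte markers summed to 5.03 to 54.5 and 3.59 to 5.54 CPM, with Ptprc, Adgre1, Cd3e, and Cd4 at most at 1 count. Lyz2 was 35.7, 40.0, and 1.17 CPM in JB81, JB91, and JB97 and at most 0.229 CPM in NC lines. Cd74 was 9.71, 11.7, and 0.457 CPM and at most 0.880 CPM in NC lines. Cd68 and Cd79a had lower means in BNC than in NC lines. The 3 lung markers summed to at most 0.229 CPM. The part of these differences in the Hox result was not tested. HoxC summed to 8.07 CPM in JB97, of which Hoxc13 made 7.77 CPM, beside 0.0848 and 0.0428 CPM in JB81 and JB91 and 23.4 to 42.6 CPM in NC lines, and HoxD summed to 5.63 CPM in JB97, beside 0.805 and 1.41 CPM in JB81 and JB91 and 2.82 to 24.3 CPM in NC lines.

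In the 9 tumors the genes of all 4 clusters were read, and 17 to 26 of the 39 had more than 3 counts, compared with 14 to 19 in BNC lines and 28 to 30 in NC lines. All tumors carry another run prefix than the lines, so tumor and line cannot be told apart from what the prefix marks. In bulk tissue, fewer cells of a type and less RNA per cell cannot be told apart. Of the 39 genes, 18 had a tumor median over 1 CPM (17 without B1). The tumors were alike in HoxB, which summed to 23.97 to 49.3 CPM (median 39.5), and spread widely in HoxC, from 2.48 to 50.8 CPM (median 11.6), and in HoxD, from 1.30 to 35.2 CPM (median 10.3).

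Hoxa5 was 1.44 to 10.8 CPM in the tumors (median 7.37), Hoxb4 5.03 to 11.97 CPM (median 8.34), and Hoxb2 3.35 to 19.2 CPM (median 8.05), with each gene read in all 9. Hoxa7 was 1.75 to 21.2 CPM (median 7.54), below the 37.1 and 38.5 CPM of JB84 and JB93 in every tumor. The NC line JB87, at 12.98 CPM, lay within the range of the tumors. Among the posterior genes, Hoxa9, Hoxa10, Hoxb13, Hoxc10, and Hoxc13 stayed under 1 CPM in every tumor. Hoxd9, also posterior, was 0.269 to 7.73 CPM (median 1.90), with more than 3 counts in all 9. Hoxa9 had more than 3 counts in 3 tumors and at most 0.695 CPM (library 22), and Hoxa10 reached at most 0.231 CPM (B28) beside 18.4 CPM in the lowest NC line. Hoxc13 reached at most 0.0644 CPM, with more than 3 counts in no tumor, and Hoxb13 had no count in any. Hoxc10 had more than 3 counts only in B45.

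Of the 6 HoxC genes that passed in the lines, each but Hoxc10 had more than 3 counts in at least 6 tumors. Hoxc4 was 0.404 to 9.33 CPM (median 2.17) and Hoxc5 0.224 to 10.0 CPM (median 1.62), with more than 3 counts in all 9. Hoxc6 was 0.0507 to 17.5 CPM (median 5.52), with more than 3 counts in 7 tumors. Hoxc8 was 0 to 11.8 CPM (median 0.970), with no count in B13 and B2, and Hoxc9 was 0 to 5.41 CPM (median 1.22), with more than 3 counts in 6 tumors. Of the 9, 3 libraries stood above the rest for the cluster, B45 at 50.8 CPM, B1 at 48.4 CPM, and B19 at 31.6 CPM, followed by B27 at 17.6 CPM and the other 5 at 2.48 to 11.6 CPM. B45, B1, and B19 were also highest for HoxD, at 35.2, 22.2, and 17.8 CPM, followed by B13 at 11.4 CPM. The 5 muscle and heart markers summed to 21911, 38416, and 33201 CPM in these 3 tumors and to 245 to 8647 CPM in the other 6, so that they were the same 3 libraries. Whether muscle RNA accounts for their HoxC and HoxD levels was not tested. B1 is the library with the fewest counts, and without it the HoxC range was 2.48 to 50.8 CPM as before.

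The tumors held further cell types. The 8 leukocyte markers summed to 713 to 8224 CPM, and 7 of the 8 were higher in every tumor than in every line, as were 3 of the 4 endothelial, 2 of the 5 fibroblast, 3 of the 5 muscle and heart, and 1 of the 3 lung markers. The lung markers reached 44149 CPM in B2, and were at most 77.4 CPM elsewhere. The 10 mesothelial markers summed to 849 to 5136 CPM. Across the 39 genes, Spearman's rho of the level per kilobase was 0.70 between the mean of BNC lines and the median of tumors, 0.52 between NC lines and tumors, and 0.64 between BNC and NC lines. Genes are not independent replicates, and these values share the gene lengths and the genes at 0.

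Of 62 genes in 6 lists around the Hox genes, 44 were tested and 0 were called by edgeR at an adjusted p under 0.01 and over 2-fold, against 1.1% of all genes. An unadjusted p under 0.05 was reached by 17, against 4408 of all 12376 genes. DESeq2 called 6, against 2023 of 13360 genes. Of 9 TALE genes, all tested, 1 passed an adjusted p of 0.05 in edgeR, higher in BNC lines, and 3 did in DESeq2. Pbx4 was 1.25 ± 0.15 CPM in BNC and 2.54 ± 0.31 CPM in NC lines (SD, n = 3) and did not pass (edgeR adjusted p = 0.0576). Meis1, Meis2, and Pknox1 were read in every line and did not pass.

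Of 11 Trithorax and menin genes, all tested, 1 passed: Mllt3, a part of the super elongation complex, was 105, 107, and 100.9 CPM in the BNC lines and 45.7, 32.7, and 42.7 CPM in the NC lines (log2 fold change 1.32 ± 0.16, SE, edgeR adjusted p = 0.0121). Ash2l, a core part of the complexes that methylate H3K4, did not pass (log2 fold change 0.95 ± 0.25, SE, edgeR adjusted p = 0.0552). Of the 4 core genes of Polycomb repressive complex 2, Ezh2, which methylates H3K27, was 147, 140, and 159 CPM against 61.8, 94.1, and 59.2 CPM (log2 fold change 0.99 ± 0.22, SE, edgeR adjusted p = 0.0374), and Suz12 did not pass (log2 fold change -0.41 ± 0.13, SE, edgeR adjusted p = 0.0839). Both genes showed no overlap between the groups, in opposite directions.

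Of 12 upstream regulators, 5 were tested and 1 passed: Gdf11, a ligand that acts on posterior Hox genes in the embryo, was 38.4, 39.6, and 39.1 CPM in the BNC lines and 13.3, 17.1, and 13.3 CPM in the NC lines (log2 fold change 1.37 ± 0.17, SE, edgeR adjusted p = 0.0114). Rara, a retinoic acid receptor, did not pass (edgeR adjusted p = 0.176). The caudal genes Cdx1, Cdx2, and Cdx4 had at most 1 count in a line.

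Genes beside the clusters were read for a difference that runs past the cluster ends. Of 18 such genes 16 were in the table, 12 were tested and 1 passed an adjusted p of 0.05 in edgeR, against 14.2% of all genes. At an unadjusted p under 0.05 in edgeR were 6 of the 12, against 4408 of all 12376 genes. Skap2, Hibadh, Tax1bp1 (beside HoxA), and Mtx2 (beside HoxD) were lower in BNC lines, and Cbx5 and Atf7 (beside HoxC) higher. DESeq2 placed 6 of the 12 at an adjusted p under 0.05, against 3927 of 13360 genes. Skap2, the neighbor of HoxA at its anterior end, was 20.3, 19.1, and 26.7 CPM in the BNC lines and 50.6, 34.7, and 54.2 CPM in the NC lines (log2 fold change -1.13 ± 0.23, SE, edgeR adjusted p = 0.0302). Cbx5, beside HoxC, was 575, 550, and 627 CPM against 398, 439, and 400 CPM and did not pass (log2 fold change 0.45 ± 0.13, SE, edgeR adjusted p = 0.0735), and the median over the 12 was -0.26. Mllt3, Ezh2, Gdf11, and Skap2 kept their direction in every fit, and 0 of them passed without JB81, JB91, JB84, or JB93 or with pairs summed in edgeR (2 by DESeq2 on the sums). Of 15 noncoding genes inside the clusters 10 were in the table and 3 were tested, and 0 passed, at an unadjusted p under 0.05 or in DESeq2 as well. The 2 with the smallest p were Hotairm1 (log2 fold change -1.17 ± 0.54, SE, edgeR adjusted p = 0.177) and Hoxb3os (log2 fold change -0.50 ± 0.32, SE, edgeR adjusted p = 0.304). Hotair, which lies in HoxC, had no count in any library.

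Copy number at the clusters could be read in 14 tumor DNA columns, 5 of which carry a number that also occurs among the RNA tumors (B2, B13, B14, B19, and B28). No DNA of the lines was analysed here. The mean log2 value over the 20-kb bins of a cluster was -0.168 to 0.056 at HoxA (median -0.087), -0.186 to -0.027 at HoxB (median -0.107), -0.178 to -0.032 at HoxC (median -0.077), and -0.217 to -0.012 at HoxD (median -0.089). The medians of the same 4 chromosomes lay between -0.023 and 0.050. With 500 kb added on each side the cluster medians moved to between -0.054 and -0.011.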

How the data were processed

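RNA of 6 cell lines and 9 tumors was analysed from counts that the authors deposited, whole numbers of reads for each Ensembl gene, not normalized. According to the methods, poly-A–enriched libraries were sequenced at 65 bases, single end, and the authors aligned them to mm10 with TopHat 2.0.12, removed nonprimary and low-quality alignments, and counted with HTSeq (strand setting not given in the sources used here). The DNA table that the authors deposited was read as a score, the log2 coverage in 20-kb bins after their correction for GC content and mappability, without its placeholder values for missing bins. Chromatin profiles were not analysed here. Columns were matched to genotypes through the line names in the study's supplementary tables. The tumor columns carry no genotype.

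Coordinates, exon lengths, and overlaps came from GENCODE vM21 (GRCm38). Symbols were found for 98.5% of the 27197 identifiers. In R 4.3.3, edgeR 4.0.16 filtered the 6 lines (filterByExpr, minimum count 10, 12376 genes), scaled them by TMM, and compared BNC with NC by the quasi-likelihood test without covariates. Standard errors were derived from the F statistic, as log2 fold change over its root. Printed CPM values were scaled by TMM over all 15 libraries, and DESeq2 1.42.0 was an alternative test. Both were tested on simulated counts (12223 genes tested in edgeR, 12350 in DESeq2). EdgeR recovered 83% and DESeq2 94% of 100 genes that had been set 16-fold apart, and 28% and 86% of 100 genes set 4-fold apart. Of genes left unchanged, edgeR called 0.033% and DESeq2 0.305%. The simulated libraries were drawn independently of each other, unlike the close pairs of lines, so these shares may not hold for these data. Levels of different genes were compared per kilobase of the union of exons. Counting intervals are exact at 95%. Total counts were 8158740 to 23936922 per library.

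The members, gene lists, and tests were chosen with earlier results of these data known. All 39 members enter the counts, sums, and medians, and 2 genes are not reported here by name. Full statistics are given for those with an adjusted p under 0.05 in edgeR and, per cluster, for the member highest per kilobase in each group. Of the other lists, the 2 genes with the smallest p are named. Other genes were named after their values were seen. Samples with the same replicate number were not taken as pairs. The lists are TALE cofactors, Trithorax and menin genes, upstream regulators, PRC2 core genes, genes beside the clusters, noncoding genes inside them, and markers of 6 cell types. Of the lists, Mir196a-2, Mir10a, Hottip, Evx2, Mir10b, Prac1, and Mir196b are not analysed here.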

Additional observations from a re-analysis of the deposited data

Results flagged for a closer look

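In the 9 tumors, 24 Hox genes had at least 10 counts in a library and were searched for a library far from the rest, by the gap to the nearest library as a share of the whole range (Dixon's test at 95%). Hoxd4 in tumor library B45 was 1.02 CPM, the next highest tumor was 0.171 CPM, and the gap was 0.832 of the range. B45 was also the library with the highest level of HoxC and HoxD. Chance alone marks about 1 in 20 groups, and 52.3% of the exon bases of Hoxd4 overlap other counted genes.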

How the results depend on the processing

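Hox genes with an adjusted p under 0.05 numbered 12 in the edgeR fit, 2 with at least 10 counts in every line, 2 with the run prefix as covariate, 0 with close pairs summed, and 0 to 19 when 1 line was left out (0 without JB81, JB91, JB84, or JB93, 17 without JB97, 19 without JB87). With a replicate block the count was 4, and 0 members were called by the stricter rule (0 of all genes). For this block the lines of each group were numbered in the order of their names, as no column could be matched to a single labelled sample. Deviations of equally numbered lines correlated at 0.095, -0.065, and -0.074, and nothing is read from this block. Members called by the stricter rule numbered 1, and 14 by DESeq2, 2 without a filter, 12 at an adjusted p under 0.05 with 2-fold, 8 by DESeq2 on summed pairs (chosen after seeing the data), 0 with at least 10 counts in every line, the run prefix, or summed pairs, and 0 to 12 with 1 line left out (5 without JB97, 12 without JB87, 0 without any other). For all genes the 136 calls became 2023 by DESeq2, 83 with at least 10 counts in every line, 1 with the run prefix, 0 with summed pairs, 582 by DESeq2 on them, 1436 at an adjusted p under 0.05 with 2-fold, and 0 to 2574 with 1 line left out. All 12 members stayed lower in BNC wherever they were fitted.

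Cluster medians kept their sign. That of HoxA (-1.42) was -2.68 by DESeq2, -3.46 without a filter, -0.095 with at least 10 counts in every line, -2.80 by DESeq2 on summed pairs, and -2.85 (without JB87) to -1.43 with 1 line left out. That of HoxC (-7.32) was -8.48 (without JB97) to -6.93, and that of HoxD (-1.95) was -2.93 with at least 10 counts and -3.84 (without JB97) to -1.46, with 1 line left out. HoxC had no tested gene with at least 10 counts in every line. Hoxb4, at a log2 fold change near 0, changed sign, to 0.0081 with the run prefix and -0.098 to 0.097 with 1 line left out. Copy number medians with 500 kb on each side were -0.013 (HoxA), -0.054 (HoxB), -0.011 (HoxC), and -0.015 (HoxD). The cause of these changes was not tested, beyond the fewer genes or lines that a filter or a left-out line leaves. Over all fits of the named Hox genes, 136 values kept direction and side of the threshold, 82 lost the call, 6 gained it, and 2 changed sign. Members without overlap between the groups numbered 14 of all 39, and 14 to 16 under other settings. The 14 are the 12 lower and 1 higher of the tested members with Hoxb13, which was not tested in edgeR. Of all genes tested in the main fit, 18.6% were lower and 23.6% higher without overlap. Nothing is read from this count. By longest transcript 10 of 12 highest members remained (HoxB in BNC lines became Hoxb3, HoxC in NC lines Hoxc6), and by TPM all 12. Depth limits a line without a count to under 0.127 to 0.229 CPM.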
